A study of Rattus norvegicus with 3 samples.

Results

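The regions described here lie on rat chromosomes 5, 10 and 12. They come from 3 lists of regions with more methylated DNA in one pooled liver library than in another. Together the 3 chromosomes held 13720 of the 95306 listed regions: 5116 of 35998 in the MLP vs. C list, 5445 of 33730 in the MLP vs. MLP-F list and 3159 of 25578 in the MLP-F vs. C list. The lists are far longer than what the study reported as differentially methylated. At a false discovery rate (FDR) of 5% it kept 1183 MLP vs. C regions and far fewer MLP vs. MLP-F regions. Between MLP-F and C it reported none. Most listed regions are thus calls of the peak caller and not established differences. They were chosen by the counts themselves, as the autosomes with the highest number of MLP vs. MLP-F regions for each MLP-F vs. C region. That ratio, and the region counts that go into it, are therefore a description of the choice and carry no test. DNA was captured with a methyl-CpG binding domain protein (MBD) and sequenced from livers of male Wistar rats aged 1 day. MLP pups were born to dams fed a low protein diet, MLP-F pups to dams fed the low protein diet with added folic acid, and C pups to dams fed a normal diet. The labels give 6 animals per pool (the study's methods give a larger number), each group came from a single litter according to the methods, and 1 library was made per group. No folate-supplemented group on the normal diet is among the samples, so the MLP-F group carries both the protein restriction and the folic acid. Litter, diet and library cannot be told apart in such a design, and all values below are descriptions of 3 libraries.

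In vertebrate DNA a methyl group is carried mostly by cytosines followed by a guanine. Folic acid feeds the one-carbon cycle that supplies the methyl groups, and protein restriction of the dam is one of the standard rodent models of nutritional programming. MBD capture enriches for fragments with several methylated CpG sites, so stretches of dense, methylated CpG contribute most of the reads. Each list sets the first-named library against the second, and a listed region had more captured reads in the first. The lists do not hold regions that go the other way, and the converse lists were not analysed here. A region's score is the peak caller's −log10 p multiplied by 10, so the lowest score of 50 stands for a −log10 p of 5. It measures how unlikely the excess of reads was under the caller's model, depends on depth, and is no methylation level. Places in the genome are given on build rn4.

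Among these regions the Agtrap region, at chr5:165156757-165157718, is the one for which the study designed a bisulphite assay, and its primers are shown because they are the designed sequence that reads single CpG sites at a listed locus. The primers' own coordinates were not looked up. The product of Agtrap attaches to the type 1 receptor of angiotensin II and promotes its internalisation. Bisulphite converts unmethylated cytosine, so that it reads as T, and leaves methylated cytosine. The primers sit on sequence where every cytosine was converted. The forward primer, of 22 bases, holds 0 C, and the reverse primer, of 21 bases, holds 0 G.
Agtrap forward: tttggtttgtttgtttagaaag
Agtrap reverse: ctaaaacccttctcctactac
The Agtrap region had a score of 122.7 in the MLP vs. C list and of 101.32 in the MLP vs. MLP-F list, and was not in the MLP-F vs. C list. It was at place 7305 of 35998 against C and at place 12143 of 33730 against MLP-F, above the median score in both lists. The authors' annotation puts it in an intron.

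The 3 chromosomes reached a like ratio from different densities of regions. Chromosome 5 held 2332 MLP vs. MLP-F regions and 1309 MLP-F vs. C regions, a ratio of 1.78 (95% exact binomial interval 1.66 to 1.91). Chromosome 12 held 1251 and 703 such regions, a ratio of 1.78 (1.62 to 1.96), and chromosome 10 held 1862 and 1147, a ratio of 1.62 (1.51 to 1.75). Pooled, the ratio was 1.72 (1.65 to 1.80) on the 3 chromosomes and 1.24 (1.22 to 1.26) on the other 17 autosomes. Chromosome 10 was the last inside the choice, and chromosome 20, at 1.57 (1.42 to 1.73), was the first outside it. Chromosome 9 stood at 1.07 (0.992 to 1.16) and chromosome 15, the lowest autosome, at 0.993 (0.911 to 1.08). The intervals cover counting error only and treat regions as independent, which neighbouring regions are not.

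**Figure D1:**
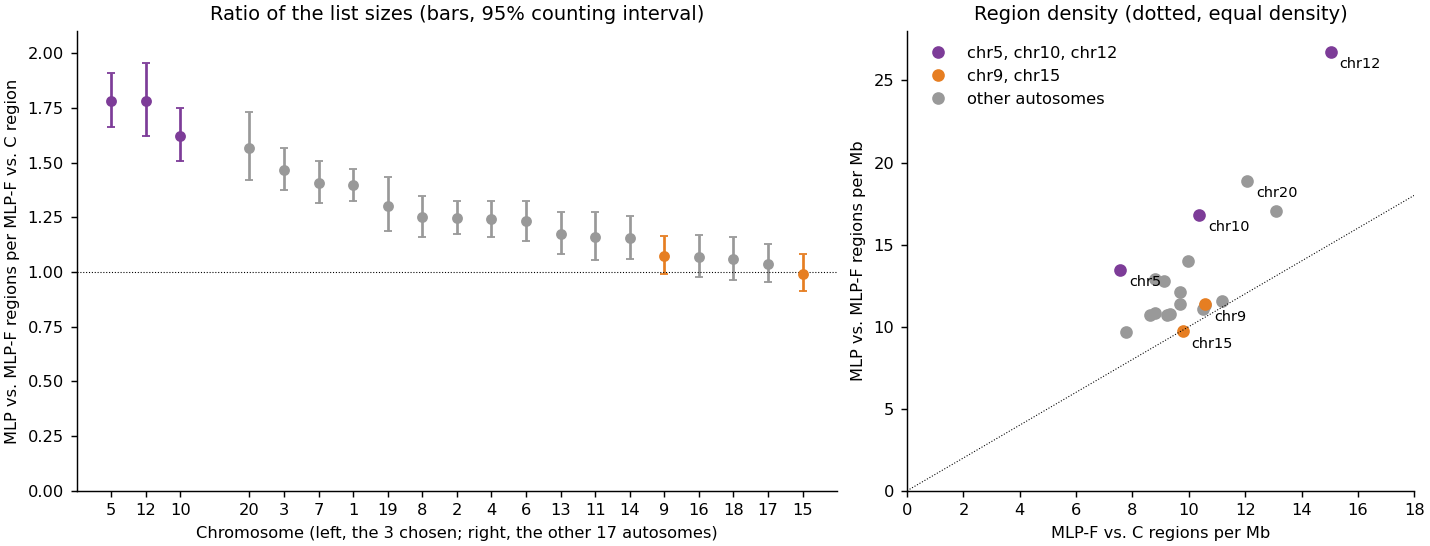
Left, MLP vs. MLP-F regions for each MLP-F vs. C region on every autosome (points, ratio; bars, 95% counting interval), with chromosomes 5, 12 and 10 at the left and the other 17 autosomes in falling order; right, regions per Mb in both lists. Chromosomes 5, 12 and 10 lie at 1.78, 1.78 and 1.62, chromosome 9 at 1.07 and chromosome 15 at 0.993, and chromosome 12 is the densest autosome in both lists while chromosome 5 is the least dense in the MLP-F vs. C list.

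Chromosome 5 was sparse in MLP-F vs. C regions. It had 7.56 of them per Mb, the lowest of the 20 autosomes, against 9.50 per Mb on the other autosomes and 7.79 on chromosome 2, the lowest of those. Its 13.47 MLP vs. MLP-F regions per Mb were 1.14 times (1.10 to 1.19) the 11.78 per Mb of the other autosomes, and its 12.41 MLP vs. C regions per Mb were 0.952 times (0.911 to 0.995) their 13.03. The short chromosomes 12, 20 and 19 were the densest autosomes in all 3 lists, and chromosome 12 came first in each. Chromosome 12 had 26.74 MLP vs. MLP-F regions, 15.03 MLP-F vs. C regions and 24.46 MLP vs. C regions per Mb. These were 2.27 (2.14 to 2.40), 1.58 (1.47 to 1.71) and 1.88 (1.77 to 1.99) times the densities of the other autosomes pooled. In the same order of lists, chromosome 20 had 18.90, 12.06 and 19.80 regions per Mb, and chromosome 19 had 17.04, 13.08 and 18.59. Chromosome 10 lay between chromosomes 5 and 12, with 16.82, 10.36 and 16.48 regions per Mb in that order of lists. Its places were 4, 8 and 4 among the 20 autosomes. Pooled, the 3 chromosomes had 1.40 times (1.36 to 1.44) the MLP vs. MLP-F density and 1.01 times (0.969 to 1.05) the MLP-F vs. C density of the other autosomes. Lengths are the largest region end on a chromosome, since no rn4 sequence was at hand.

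The MLP vs. C list, which the choice did not use, was intermediate. The 3 chromosomes had 1.19 times (1.15 to 1.22) the MLP vs. C density of the other autosomes. They had 1.64 (chromosome 5), 1.59 (chromosome 10) and 1.63 (chromosome 12) MLP vs. C regions for each MLP-F vs. C region, against 1.23 (chromosome 15) to 1.64 (chromosome 20) on the other autosomes. Chromosome 20 thus reached the ratio of the 3. Chromosomes 5, 10 and 12 were the 3 autosomes with more MLP vs. MLP-F than MLP vs. C regions, at 1.09 (1.02 to 1.15), 1.02 (0.956 to 1.09) and 1.09 (1.01 to 1.19) for each MLP vs. C region, and the other autosomes ranged from 0.805 on chromosome 15 to 0.984 on chromosome 3. For chromosome 10 the interval includes 1. The lists share their libraries (each library stands in 2 of them), so none of these ratios is independent of the choice. The 3 libraries also differed in depth: MLP was the deepest and C the shallowest. The part of depth in the region counts was not tested.

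Scores were much the same on the 3 chromosomes as elsewhere. The median score of MLP vs. MLP-F regions was 82.08 on chromosome 5, 79.91 on chromosome 10 and 80.68 on chromosome 12, against 81.48 on the other autosomes, 77.88 on chromosome 9 and 79.98 on chromosome 15. In the MLP-F vs. C list the medians were 70.11, 68.84 and 69.15 on chromosomes 5, 10 and 12, against 69.32 on the other autosomes. In the MLP vs. C list chromosome 10 had the lowest median of the 20 autosomes, 73.92, against 77.17 on the other autosomes, and chromosomes 5 and 12 had 78.15 and 77.20. Of all MLP vs. C regions in the series 31.1% scored 100 or more, of all MLP vs. MLP-F regions 36.8% and of all MLP-F vs. C regions 19.1%. On chromosome 10 the share in the MLP vs. C list was 26.6% (95% Wilson interval 24.7 to 28.7), the lowest of the 20 autosomes, whereas on chromosome 5 it was 32.2% (30.3 to 34.2), the highest. In the MLP vs. MLP-F list the shares on chromosomes 5, 10 and 12 were 36.5%, 35.3% and 35.6%, and in the MLP-F vs. C list 19.5%, 18.6% and 19.1%, all near the shares of the series.

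The regions were short. MLP vs. MLP-F regions had a median length of 734 bp on chromosome 5, 698.5 bp on chromosome 10 and 747 bp on chromosome 12, against 722 bp on the other autosomes. Regions of 2000 bp or more made up 1.65% (1.35 to 2.03; 90 of 5445) of the MLP vs. MLP-F regions of the 3 chromosomes and 1.25% (1.13 to 1.40; 329 of 26226) of those of the other autosomes. On chromosome 12 the share was 2.40% (1.69 to 3.40). The longest MLP vs. MLP-F region of the 3 chromosomes, of 4599 bp at chr5:152046279-152050877, scored 286.94 and was absent from the other lists. The longest autosomal MLP-F vs. C region lay on chromosome 12, at chr12:4360717-4369195, and spanned 8479 bp with a score of 85.09. Beside it lay chr12:4399700-4405096 (5397 bp, score 600.77) and chr12:4408660-4411933 (3274 bp, score 421.39). None of these 3 neighbours overlapped a region of either MLP list. The nearest region with a gene name in the authors' annotation, in an intron of Zar1l, which is expressed in oocytes and belongs to the zygote arrest family, was an MLP vs. C region 23462 bp before the first of them, with a score of 126.67.

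Which regions the lists shared also differed along the genome. Over the whole series 39.4% of MLP vs. C regions overlapped an MLP vs. MLP-F region. The share was 43.8% (41.7 to 45.9) on chromosome 5 and 42.1% (39.3 to 45.0) on chromosome 12, the 2 highest of the 20 autosomes, but 38.6% (36.4 to 40.8) on chromosome 10, which is near the series. On the other autosomes it ranged from 34.55% on chromosome 17 to 41.5% (39.9 to 43.2) on chromosome 1, whose interval overlaps those of chromosomes 5 and 12. It was 36.9% (34.6 to 39.4) on chromosome 9 and 35.8% (33.3 to 38.5) on chromosome 15. Over the whole series 22.6% of MLP vs. C regions overlapped an MLP-F vs. C region. On chromosomes 5, 10 and 12 the shares were 20.2% (18.5 to 21.9), 19.9% (18.1 to 21.8) and 21.0% (18.7 to 23.4), against 20.9% (chromosome 20) to 26.3% (chromosome 17) on the other autosomes and 26.0% (23.7 to 28.4) on chromosome 15. These shares rise with the size of the second list, which the choice used, so they follow the choice in part. With regions that scored 100 or more in both lists, the share overlapping an MLP-F vs. C region was 10.4% on the 3 chromosomes and 10.5% on the other autosomes.

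**Figure D2:**
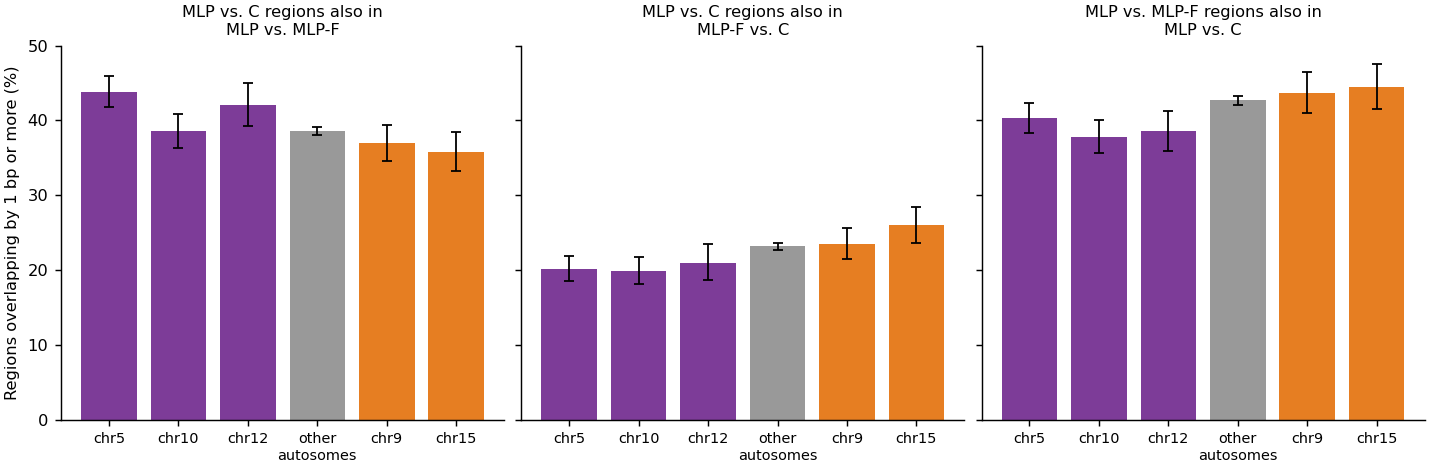
Percent of the regions of one list that overlap a region of another by 1 bp or more (bars, percent; error bars, 95% Wilson interval), for chromosomes 5, 10 and 12, the other 17 autosomes pooled, and chromosomes 9 and 15. Chromosome 5 is highest in the left panel at 43.8%, chromosome 15 highest in the middle panel at 26.0% and in the right panel at 44.5%.

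Read from the other side, 42.1% of all MLP vs. MLP-F regions overlapped an MLP vs. C region. On chromosomes 5, 10 and 12 it was 40.4% (38.4 to 42.4), 37.8% (35.6 to 40.0) and 38.5% (35.9 to 41.3), against 42.7% (42.1 to 43.3) on the other autosomes, 43.7% on chromosome 9 and 44.5% on chromosome 15. Chromosomes 10 and 12 had the lowest shares of the 20 autosomes. Their denominator is the MLP vs. MLP-F list, whose size the choice used. These shares, and that of regions in neither other list, thus follow the choice in part. In counts, 3314 of the 5445 MLP vs. MLP-F regions on the 3 chromosomes were in neither of the other lists (60.9%, 59.6 to 62.2), against 15009 of 26226 (57.2%, 56.6 to 57.8) on the other autosomes. By chromosome this share was 59.6%, 62.1% and 61.3% on chromosomes 5, 10 and 12. On the other autosomes it ranged from 52.5% (chromosome 18) to 61.1% (chromosome 8). The 3314 regions had a median score of 74.92, against 75.26 on the other autosomes, whereas the 2084 that were also in the MLP vs. C list only had a median of 95.88. Every one of the 2127 overlaps between the MLP lists on the 3 chromosomes had the same start and end in both lists, as had all 11195 on the other autosomes. None of the 1036 overlaps between the lists against C (MLP and MLP-F) did. In 1100 of the 2127 pairs the score was higher in the MLP vs. MLP-F list, and the median ratio of that score to the MLP vs. C score was 1.03, against 1.00 on the other autosomes.

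The MLP-F vs. C regions stood mostly apart. In the series 31.8% of them overlapped an MLP vs. C region, and on chromosomes 5, 10 and 12 it was 33.1% (30.6 to 35.7), 31.1% (28.5 to 33.9) and 34.3% (30.9 to 37.9). In the series 1.67% of them overlapped an MLP vs. MLP-F region, and 1.27% of MLP vs. MLP-F regions overlapped an MLP-F vs. C region. On the 3 chromosomes 47 of 5445 MLP vs. MLP-F regions did, a share of 0.863% (0.650 to 1.15), against 1.35% (1.22 to 1.50) on the other autosomes. Taken over the MLP-F vs. C regions, the shares were 1.49% (1.12 to 1.97) and 1.68% (1.52 to 1.87). The choice used the sizes of both lists, so these shares and that of regions in all 3 lists follow it in part. Regions in all 3 lists are those where MLP exceeded MLP-F and MLP-F exceeded C. There were 43 of them among the 5116 MLP vs. C regions of the 3 chromosomes (0.841%, 0.625 to 1.13), with a median score of 258.7 in the MLP vs. C list, against 333 of 29010 (1.15%, 1.03 to 1.28) with a median of 288.9 on the other autosomes. The strongest lay in an intron of Tpst1, an enzyme that sulphates tyrosines of secreted proteins in the Golgi, at chr12:27636878-27637605, with scores of 1354.73 (MLP vs. C), 569.41 (MLP vs. MLP-F) and 80.36 (MLP-F vs. C). The next were chr5:18181304-18181995, with 683.95, 147.77 and 122.29, and chr5:73140330-73140870, with 674.78, 114.34 and 156.56.

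Along the chromosomes the excess of MLP vs. MLP-F regions was uneven. Counts were made in bins of 5 Mb from the chromosome start, and ratios were read in bins with at least 20 regions of both lists. This minimum leaves out bins with few MLP-F vs. C regions, which favours lower ratios among the bins kept. Medians and extremes below are those of the bins kept. Of 58 such bins on the 3 chromosomes, 46 (79.3%, 67.2 to 87.8) had a ratio above that of the other autosomes, against 166 of 392 bins (42.3%, 37.6 to 47.3) on those autosomes themselves. The choice used the same ratio, so this difference follows from it, and bins are not replicates. The median bin had a ratio of 1.68 on the 3 chromosomes and of 1.15 on the others. Bins on the other autosomes reached further, to 4.76 on chromosome 1, than the highest on the 3 chromosomes.

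On chromosome 5 the regions gathered towards the distal end. From 135 Mb to the end lay 43.3% of its MLP vs. MLP-F regions (1009) and 36.4% of its MLP-F vs. C regions (476), a ratio of 2.12 (1.90 to 2.37), against 1.59 (1.46 to 1.73) before 135 Mb. The split at 135 Mb was set after the counts were seen. With the chromosome cut into 5 equal parts, the last had a ratio of 2.18 (1.94 to 2.44), and the 4 before it ranged from 1.50 to 1.61. On the other autosomes pooled, the last part had 1.12 (1.08 to 1.16) and was the lowest of the 5. It was 0.877 on chromosome 9 and 0.824 on chromosome 15. Pooling can hide a distal rise on a single autosome. On chromosome 3 the bins at 155 to 160 Mb and 165 to 170 Mb had ratios of 2.43 and 1.93, and the bin between them 1.43. The bin of 165 to 170 Mb had the most regions in all 3 lists: 189 MLP vs. MLP-F, 78 MLP-F vs. C and 147 MLP vs. C. Agtrap, Camta1 and Kcnab2 lie there. Among the bins kept, the highest ratio was 3.28 (2.14 to 5.15) in the last bin, from 170 Mb, with 95 and 29 regions. Next was 2.94 (2.20 to 3.97) at 155 to 160 Mb, with 188 and 64, where Usp48, Rap1gap, Akr7a3 and Rcc2 are annotated. The minimum kept 26 of the 35 bins of chromosome 5, and all bins left out lay before 135 Mb. Their ratios ran from 1.86 (130 to 135 Mb) to 3.83 (10 to 15 Mb, with 46 and 12 regions). The bins kept thus overstate the distal rise, whereas the split at 135 Mb and the 5 equal parts use all regions. The lowest ratio among the bins kept was 0.923 (0.570 to 1.49) at 115 to 120 Mb, around Kank4, with 36 and 39.

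**Figure D3:**
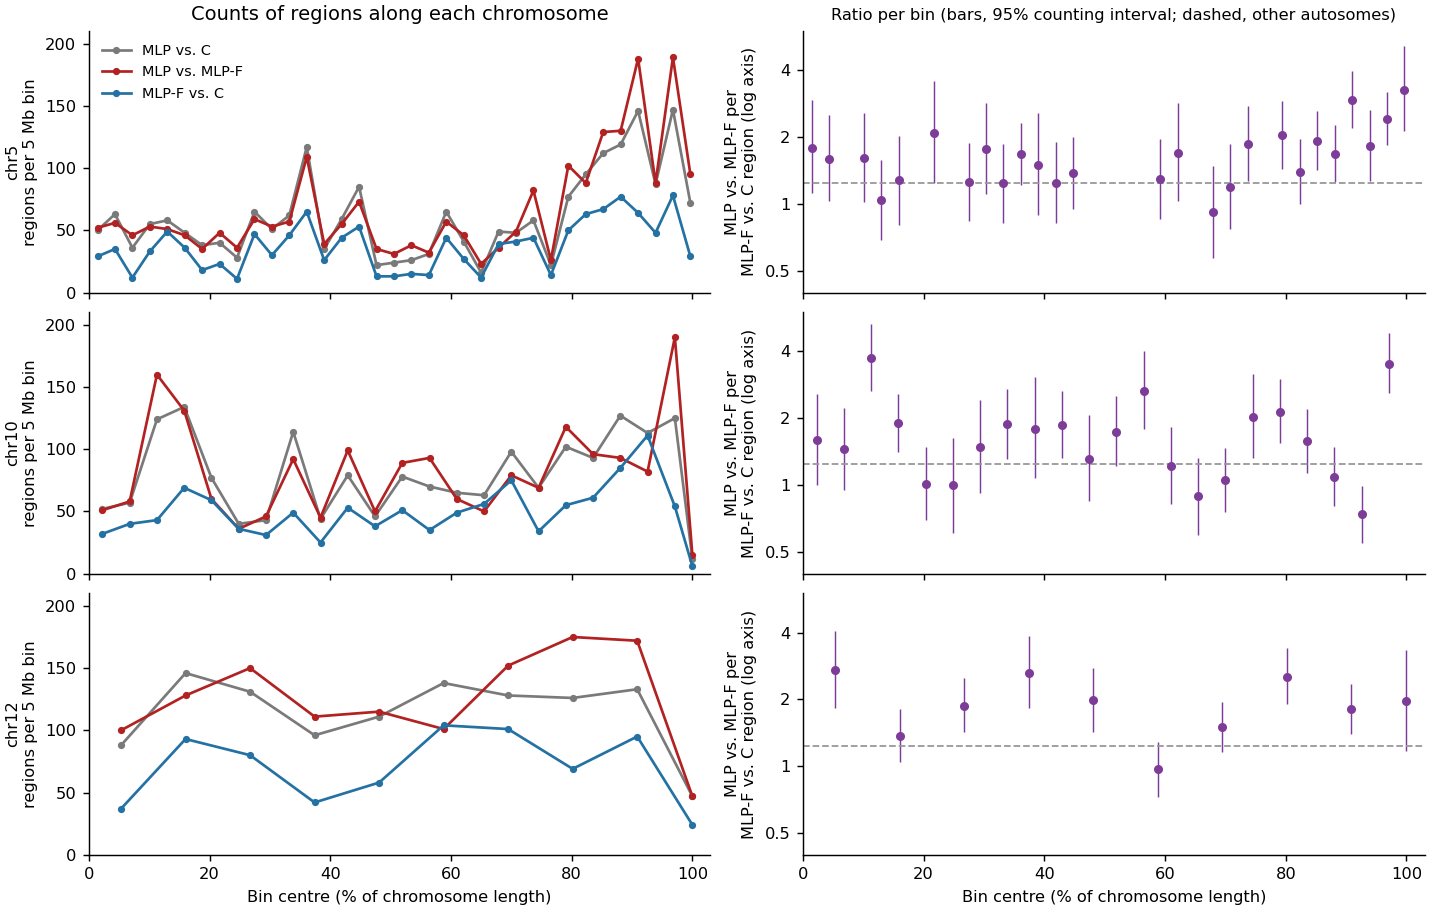
Regions per 5 Mb bin in the 3 lists (left) and MLP vs. MLP-F regions for each MLP-F vs. C region in bins with at least 20 of both (right, log axis; bars, 95% counting interval; dashed line, 1.24 of the other autosomes) against the bin's place as percent of chromosome length, for chromosomes 5, 10 and 12. Among the bins shown, chromosome 5 climbs towards its distal end, chromosome 10 has 2 isolated peaks at ratios of 3.72 and 3.52, and chromosome 12 stays above the line in 9 of 10 bins. The chromosome 5 bins left out on the right all lie before 135 Mb, at ratios of 1.86 to 3.83.

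Chromosome 10 had 2 bins that stood out. At 10 to 15 Mb there were 160 MLP vs. MLP-F regions and 43 MLP-F vs. C regions, a ratio of 3.72 (2.64 to 5.34), and at 105 to 110 Mb there were 190 and 54, a ratio of 3.52 (2.59 to 4.85). They were at places 5 and 7 among all 450 autosomal bins with enough regions. Ccnf (cyclin F) is annotated in the first, and Mgat5b and Baiap2, a scaffold of the actin cytoskeleton at synapses, in the second. Directly before the second, at 100 to 105 Mb, the balance was reversed: 82 MLP vs. MLP-F regions and 111 MLP-F vs. C regions, a ratio of 0.739 (0.548 to 0.992), at place 406, with Sdk2 among the annotated genes. Without the 2 highest bins, chromosome 10 had a ratio of 1.44 (1.33 to 1.56), and chromosomes 5 and 12, without their own 2 highest, had 1.69 (1.57 to 1.81) and 1.67 (1.51 to 1.84). Chromosomes 9 and 15 treated alike had 1.02 (0.936 to 1.11) and 0.920 (0.841 to 1.01). Over the bins the counts of MLP vs. MLP-F regions and of MLP-F vs. C regions had a correlation of 0.83 on chromosome 5 (35 bins), 0.39 on chromosome 10 (23 bins) and 0.63 on chromosome 12 (10 bins) (all points share the MLP-F library). The counts of the MLP lists, which share the MLP library, had 0.95, 0.85 and 0.76.

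On chromosome 12 the ratio was spread over the whole length. Over 5 equal parts it ranged from 1.47 (1.17 to 1.84) in the middle one to 2.01 (1.60 to 2.53) in the one before it. The highest bins were the first 5 Mb, with 100 MLP vs. MLP-F regions and 37 MLP-F vs. C regions and a ratio of 2.70 (1.84 to 4.06), and 15 to 20 Mb, with 111 and 42 and a ratio of 2.64 (1.84 to 3.87). Stard13 and Zar1l are annotated in the first, LOC681196 and Prkar1b, a regulatory subunit of protein kinase A, in the second. The bin of 25 to 30 Mb, which holds Tpst1 and Caln1, had 101 and 104 regions, a ratio of 0.971 (0.731 to 1.29). On the same chromosome the bin at 35 to 40 Mb had the most MLP vs. MLP-F regions, 175, and 69 MLP-F vs. C regions.

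Strong regions were few and nearly all concerned MLP. A score of 500 or more was reached by 56 of 5445 MLP vs. MLP-F regions (1.03%, 0.793 to 1.33) on the 3 chromosomes, against 1.16% (1.04 to 1.30) on the other autosomes. It was reached by 21 of 5116 MLP vs. C regions (0.411%, 0.269 to 0.627), against 0.610% (0.527 to 0.707), and by 3 of 3159 MLP-F vs. C regions (0.0950%, 0.0323 to 0.279), against 0.199% (0.147 to 0.268). Chromosome 12, with 21 of the 56 MLP vs. MLP-F regions, had a share of 1.68% (1.10 to 2.55). Of the 21 strong MLP vs. C regions 20 were also in the MLP vs. MLP-F list and 6 in the MLP-F vs. C list, against 160 and 77 of 177 on the other autosomes. Of the 56 strong MLP vs. MLP-F regions 41 were in the MLP vs. C list and 1 in the MLP-F vs. C list, against 237 and 14 of 304 on the other autosomes.

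**Figure D4:**
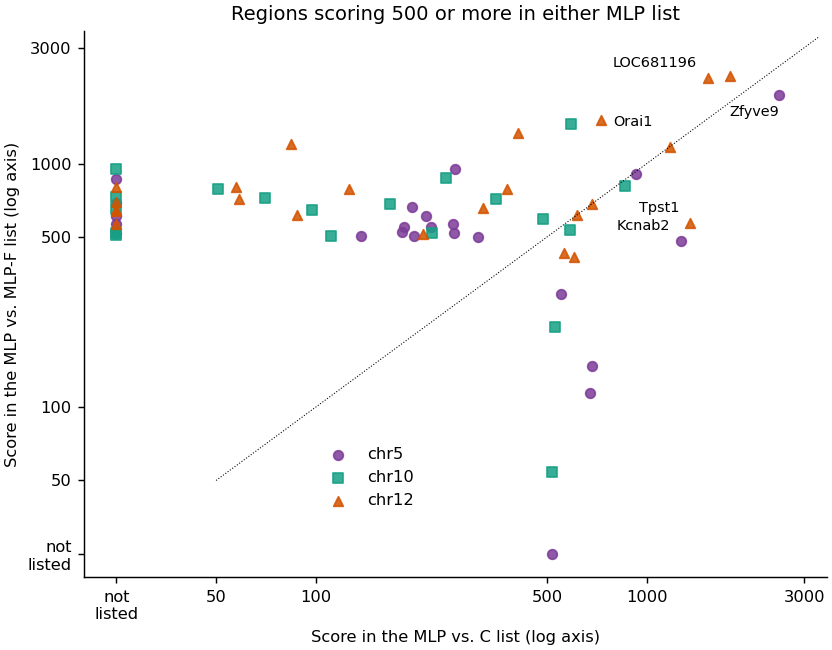
Scores in the MLP vs. C list (horizontal) and in the MLP vs. MLP-F list (vertical), on log axes, of the regions of chromosomes 5, 10 and 12 that reached 500 in either; the dotted line marks equal scores, and regions absent from a list stand on its "not listed" mark. Kcnab2 (1267.96 and 482.16) and Tpst1 (1354.73 and 569.41) lie below the line, Orai1 (726.85 and 1509.2) above it.

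The strongest region on chromosome 5 lay in an intron of Zfyve9, which encodes SARA, an anchor that brings SMAD proteins to the TGF-beta receptor. At chr5:129965189-129965971 it scored 2513.77 in the MLP vs. C list (place 10 of the list) and 1920.35 in the MLP vs. MLP-F list (place 22), and it was not in the MLP-F vs. C list. An intronic region of Kcnab2, a beta subunit of voltage-gated potassium channels, at chr5:169691349-169693707, scored 1267.96 in the MLP vs. C list and 482.16 in the MLP vs. MLP-F list. Before it, at a distance of 180805 bp, chr5:169508856-169510544, for which no gene name was given, scored 926.69 and 909.42. From 169.5 to 169.8 Mb there were 24 MLP vs. MLP-F, 9 MLP vs. C and 0 MLP-F vs. C regions. The region chr5:57613335-57613960, 49673 bp from an annotated region of the ubiquitin ligase gene Topors, scored 955.24 in the MLP vs. MLP-F list and 264.24 in the MLP vs. C list. The authors' annotations named a tandem repeat for all 5 annotated MLP vs. C regions of 1000 or more on chromosomes 5, 10 and 12. Among them, Zfyve9 comes from their MLP vs. MLP-F annotation, and Kcnab2 and Tpst1 from the MLP vs. C one. Of the 169 annotated MLP vs. C regions there, 52 (30.8%) had one. None was named for Orai1, at 1509.2 in the MLP vs. MLP-F list. A named repeat may lie outside its region, and the part of repeats in these scores was not tested.

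On chromosome 12 the highest scores fell between 18.7 and 20.4 Mb, around LOC681196, a predicted gene. Regions upstream of it at chr12:19090322-19091241 and chr12:19136084-19137271 scored 1788.98 and 1529.58 in the MLP vs. C list and 2284.88 and 2246.83 in the MLP vs. MLP-F list. The authors' annotation names the same repeat, NICER_Rn, for both, and whether they share reads was not tested. Nearby, chr12:19050898-19051555 scored 1176.48 in both MLP lists, chr12:18755604-18756401 scored 686.25 in both and chr12:20379095-20379889 scored 617.51 in both. Identical scores were uncommon: 85 of 2127 regions shared by the MLP lists on the 3 chromosomes had them (4.0%, 3.24 to 4.92), against 650 of 11195 (5.81%, 5.39 to 6.26) on the other autosomes. From 18.7 to 20.4 Mb the MLP-F vs. C list had 12 regions, of which the highest scored 134.28.

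Orai1, the pore subunit of the store-operated calcium channel, had a region over the 3′ end of an exon at chr12:34631280-34632266. It scored 1509.2 in the MLP vs. MLP-F list (place 39) and 726.85 in the MLP vs. C list (place 105), and was not in the MLP-F vs. C list. A cluster without gene names at 35.9 Mb, chr12:35900281-35901403, chr12:35917473-35918811 and chr12:35944094-35945576, scored 713.55, 804.28 and 1334.06 in the MLP vs. MLP-F list. In the MLP vs. C list the first scored 58.85, the last 409.57, and the middle one was absent. Nearer the start of the chromosome, chr12:21515285-21516604 scored 1204.83 in the MLP vs. MLP-F list and 83.96 in the MLP vs. C list. These regions scored higher in the MLP vs. MLP-F list than in the MLP vs. C list, or were absent from the latter. They were picked for high MLP vs. MLP-F scores, and scores depend on depth, so this is a description only.

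Chromosome 10 had no MLP vs. C region of 1000 or more. Its strongest there, chr10:108824991-108827080, scored 861.34, and 810.94 in the MLP vs. MLP-F list. Its strongest MLP vs. MLP-F region, chr10:86246347-86248072, scored 1456.36 there and 591.69 in the MLP vs. C list. The nearest annotated region, 422624 bp away, is one of Tbx21 (T-bet, the master regulator of T helper 1 cells). Genes outside the annotation, which may lie nearer, were not looked up. The next in the MLP vs. C list, chr10:93383154-93385070, scored 585.94 in the MLP vs. C list and 534.37 in the MLP vs. MLP-F list. In the bin of 10 to 15 Mb, chr10:10841155-10843402 scored 955.39 in the MLP vs. MLP-F list and was absent from the others, and chr10:12295332-12295926 scored 874.39 there and 247.16 in the MLP vs. C list.

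The highest MLP-F vs. C scores on the 3 chromosomes were lower and lay at other places. On chromosome 12, chr12:42509434-42510423 scored 941.24 in that list (place 10) and 91.62 in the MLP vs. C list. It lay 16025 bp from an annotated region of Cox6a1, a subunit of cytochrome c oxidase. On chromosome 12 as well, chr12:3112125-3114227 scored 489.35, and 211.42 in the MLP vs. C list. On chromosome 10 the highest were chr10:4020703-4023347, with 521.63 and with 89.62 in the MLP vs. C list, chr10:89134111-89135789, with 454.86, and chr10:74413993-74414446, with 420.95. On chromosome 5 they were chr5:48414852-48415456, with 486.32, chr5:130756510-130758714, with 480.65, and chr5:139932488-139933500, with 364.07. None of the 9 highest MLP-F vs. C regions, taken as 3 per chromosome, was in the MLP vs. MLP-F list. In the series 1.67% of all MLP-F vs. C regions were. On the other autosomes 0 of the 42 that scored 500 or more were. The sets are small for so low a share and were picked by different rules, so they cannot show whether the 3 chromosomes differ.

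Besides Agtrap, 4 loci named in the study's text have an annotated region on these chromosomes, each intronic and with a score near 130 in the MLP vs. C list. Bach2, a transcription repressor of B and T lymphocytes, scored 128.71 in the MLP vs. C list and 168.4 in the MLP vs. MLP-F list (chr5:48775332-48775958). Eif2b3, a subunit of the exchange factor that recharges eIF2 in translation initiation, scored 128.54 and 59.6 (chr5:137392009-137392479). Mllt3, a subunit of complexes that promote transcription elongation, scored 129.88 in the MLP vs. C list and 56.95 in the MLP-F vs. C list (chr5:107069485-107070189). Myh10, the heavy chain of non-muscle myosin IIB, scored 126.61 in the MLP vs. C list and 60.13 in the MLP-F vs. C list (chr10:55452836-55453260). Thus Agtrap, Bach2 and Eif2b3 were in both MLP lists and not in the MLP-F vs. C list, and for Mllt3 and Myh10 it was the MLP-F vs. C list that held a region with the MLP vs. C one. The locus of Bach2 is the one whose score was higher against MLP-F than against C.

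Gene names come from the authors' annotation, which covers 169 of the 5116 MLP vs. C regions of the 3 chromosomes and 4 of the 5445 MLP vs. MLP-F regions. It is no sample of all scores. Of the 169 annotated MLP vs. C regions 166 scored between 121.79 and 131.84, where the list holds 169 regions on these chromosomes, 3 scored 1000 or more, and none of the 834 regions in between was annotated. The share overlapping another list can thus be read mostly for regions of this narrow range of scores, below which lay 4107 of the 5116 regions. In the series 39.4% of MLP vs. C regions overlapped an MLP vs. MLP-F region and 22.6% an MLP-F vs. C region. Of the 169 annotated regions 83 (49.1%, 41.7 to 56.6) overlapped an MLP vs. MLP-F region, against 501 of 976 (51.3%, 48.2 to 54.5) on the other autosomes, and 50 (29.6%, 23.2 to 36.9) an MLP-F vs. C region, against 269 of 976 (27.6%, 24.9 to 30.5). At this score the 3 chromosomes and the other autosomes had overlapping intervals.

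Of all 169 annotated MLP vs. C regions 81 (47.9%) were in both MLP lists and not in the MLP-F vs. C list, 48 (28.4%) in both lists against C and not in the MLP vs. MLP-F list, and 38 (22.5%) in the MLP vs. C list alone. The gene lists can be read beside these shares. Of the genes of lipid, sterol and xenobiotic metabolism in a list of 22, 6 had a region, of which 3 were in both MLP lists, 1 in both lists against C and 2 in the MLP vs. C list alone. Scp2, a peroxisomal carrier and thiolase of sterols and branched fatty acids, scored 126.0 in the MLP vs. C list and 387.6 in the MLP vs. MLP-F list. Acly, ATP citrate lyase, which makes cytosolic acetyl-CoA for fatty acid and cholesterol synthesis, scored 123.0 and 57.91 in the same lists. Alox12b, an epidermal lipoxygenase, scored 123.9 and 50.42. Stard13 scored 127.1 in the MLP vs. C list and 103.5 in the MLP-F vs. C list. Akr7a3, an aldehyde reductase of liver that acts on aflatoxin products, scored 131.0, and the transporter gene Abca8a 131.8, both in the MLP vs. C list alone.

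Immune and T cell signalling was covered by 9 of 27 listed genes with 11 regions, of which 5 were in both MLP lists, 1 in both lists against C and 5 in the MLP vs. C list alone. Csf3r, the receptor of granulocyte colony-stimulating factor, scored 123.2 in the MLP vs. C list and 202.3 in the MLP vs. MLP-F list, and Tbx21 123.5 and 98.15. Map2k6, a kinase that activates p38, scored 130.6 and 66.80. Casp8ap2 scored 129.4 and 73.34. Skap1, an adaptor of the T cell receptor, had one intronic region in the MLP vs. C list alone (123.1) and another that scored 131.6 there and 162.2 in the MLP-F vs. C list. Socs1, an inhibitor of cytokine signalling, and both regions of Map3k7 (TAK1) were in the MLP vs. C list alone, at 124.0, 130.1 and 130.8.

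Chromatin and transcription regulators had 7 regions of 7 of 19 listed genes, of which 5 were in both MLP lists, 1 (Mllt3) in both lists against C and 1 (Ahdc1) in the MLP vs. C list alone. Tbx4, a T-box factor of limb and lung, scored 128.7 in the MLP vs. C list and 300.8 in the MLP vs. MLP-F list, Camta1 124.2 and 285.9, Mn1 123.5 and 97.20, NCOR1_RAT (a nuclear receptor corepressor) 129.2 and 90.48, and Hmgb4 128.2 and 80.32. Neuronal receptors, channels and adhesion had 18 regions of 16 genes, a list written from the annotated names, of which 9 were in both MLP lists, 6 in both lists against C and 3 in the MLP vs. C list alone. Among them Oprd1, the delta opioid receptor, scored 129.9 in the MLP vs. C list and 119.2 in the MLP vs. MLP-F list. Odz2 (Tenm2, a teneurin) had one region of 125.0 that scored 150.2 in the MLP-F vs. C list. Kcnip1, a potassium channel partner, had one region in each class, at 131.5 and 69.70 in the MLP lists and at 124.0 and 57.07 in the lists against C.

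Cell cycle, replication and DNA repair genes (8 of 18 listed) had 9 regions, of which 2 were in both MLP lists, 4 in both lists against C and 3 in the MLP vs. C list alone. Rcc2 and Crocc were in both MLP lists, at 50.75 and 50.46 in the MLP vs. MLP-F list. Cdk8, the Mediator kinase, scored 129.0 in the MLP vs. C list and 77.65 in the MLP-F vs. C list. Cytoskeleton and muscle genes (7 of 11 listed) had 8 regions, of which 2 were in both MLP lists, 4 in both lists against C and 2 in the MLP vs. C list alone. Myh1, a skeletal muscle myosin, scored 128.4 and 110.4 in the MLP lists. Frmpd1 scored 131.5 in the MLP vs. C list and 116.3 in the MLP-F vs. C list. Median MLP vs. C scores of the 6 lists lay between 126.6 and 129.4, against 127.1 for all annotated regions of the 3 chromosomes, since nearly all come from the same narrow range. The lists were written with these annotations in view and overlap by the regions of Skap1, so their counts describe and do not compare.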

How the data were processed

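MBD-captured DNA of 1 pooled library per group (MLP, MLP-F, C) was sequenced. Alignment (Bowtie, rn4) and peak calling (MACS, the first-named library of a pair against the second) were done by the authors, and CASAVA is listed beside Bowtie in the submitters' processing notes, whose versions were not given in the sources used here. Each deposited list holds positions and a score, made from the MACS p. By the study's read totals MLP was the deepest and C the shallowest library, and the effect of depth on the lists was not tested. Regions were counted by chromosome and by 5 Mb bin (midpoint). Overlap means 1 bp or more. Intervals are 95% Wilson for shares and exact binomial for ratios of counts. With 1 library per group no test was run. The overlap code was tested on simulated data. Positions are 1-based. Gene names and places (intronic, upstream) come from the authors' annotation, joined by start and end. It lists what is nearest, and a repeat it names may lie outside the region. Distances are to the nearest region in this annotation, and genes outside it were not looked up. Of its 139 names on these chromosomes 104 matched a RefSeq (GRCr8) symbol or synonym. Fold, FDR and distance columns of that annotation were not used. Named were the 3 highest regions of each list per chromosome, loci of the study's text, annotated regions of 1000 or more or of the MLP vs. MLP-F annotation, members of 6 gene lists, and extreme bins. Other regions were named after their values were seen. The chromosomes, lists and rules were chosen with earlier results of these data known. The alternatives were other score minimums, list sizes, overlap rules, bin widths, merged regions, chromosome ends and comparison sets. Python 3.11.15, numpy 2.4.6, pandas 2.3.3, SciPy 1.17.1 and matplotlib 3.10.9 were used.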

Additional observations from a re-analysis of the deposited data

How the results depend on the processing

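The MLP vs. MLP-F to MLP-F vs. C ratio of the 3 chromosomes over that of the other autosomes was 1.39 (1.33 to 1.45). The interval covers the counting error of the 3 chromosomes and takes the ratio of the other autosomes as fixed. The value stayed within this interval under all 12 alternatives tried. It ranged from 1.34 without the first and last 5 Mb of each chromosome to 1.44 without chromosome 10. With scores of at least 200 it was 1.35, with a wider interval (1.05 to 1.76). The 3 chromosomes, chosen by this ratio, were not chosen anew under any alternative, so its stability is no support for the choice. Leaving out a chromosome, the 2 highest bins of each autosome, or regions of 2 kb or more was chosen after seeing the data. Of 44 recomputed values 32 stayed within the interval of the reported value and 12 moved outside it. The share of MLP vs. C regions overlapping an MLP vs. MLP-F region was 35.67% with scores of at least 100, 37.42% with the 20000 highest regions of each list and 43.96% within 1 kb (other autosomes 34.46%, 35.47% and 40.71%). The share overlapping an MLP-F vs. C region was 10.41%, 18.35% at a reciprocal overlap of 50%, and 22.40% within 1 kb (other autosomes 10.50%, 21.33% and 25.42%). The share of MLP vs. MLP-F regions overlapping an MLP vs. C region was 27.86%, 32.85% and 42.08% under the first 3 settings (other autosomes 32.37%, 36.82% and 45.21%). The MLP vs. C density relative to the other autosomes was 1.149 with scores of at least 100, the MLP vs. MLP-F density 1.345 without the chromosome ends, and the median MLP vs. MLP-F score 113.3 among the 20000 highest regions (other autosomes 113.5), which holds by construction. Otherwise the cause was not tested. No paired analysis was possible because each group has 1 library. The number of reads behind a region is not in the lists, so the precision of single regions is unknown.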

Other observations

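Outside the autosomes the same ratio took more extreme values. The X chromosome, single in males, had 1276 MLP vs. MLP-F, 375 MLP-F vs. C and 938 MLP vs. C regions, a ratio of 3.40 (3.03 to 3.83), which is higher than on chromosomes 5, 10 and 12 (1.78, 1.62 and 1.78). Sequence not placed on a chromosome had a ratio of 0.872 (0.791 to 0.961).

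All overlapping regions of the MLP lists (against C and against MLP-F) shared both borders, on these chromosomes and on the other autosomes, and no region shared borders with the MLP-F vs. C list. An overlap of the MLP lists is thus the same MLP region passing against both other libraries. On chromosomes 5, 10 and 12 the 1996 MLP vs. C regions in neither other list (39.0%, against 39.4% on the other autosomes) had a median score of 65.64, against 66.31 on the other autosomes, and the 2084 shared with the MLP vs. MLP-F list only had 88.07.

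The annotated MLP vs. C regions came from a narrow band of scores: 834 MLP vs. C regions of these chromosomes scored above 131.84 and under 1000 and none was annotated, among them chr5:169508856-169510544 (926.69) and chr10:108824991-108827080 (861.34).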
